A study of Mus musculus with 24 samples.

Results

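The collagen genes were followed in RNA sequencing of the neural retina and the eye cup of the mouse. Every protein-coding gene whose symbol is built as Col, a type number, the letter a and a chain number was taken, which gave 44 of the 56748 genes in the deposited table. The choice used the symbol alone and no measured value. The mice were PRDM13-OE animals, heterozygous for a doxycycline (dox)-inducible human PRDM13 cassette in the Rosa26 locus, and their wildtype littermates. In this cassette a ubiquitous promoter, EF-1α, drives the transactivator rtTA, and PRDM13 lies behind the TRE3G promoter, so that the design does not restrict induction to the retina. Mice of each genotype were untreated or drank 2 mg/ml dox with 10% sucrose for 72 hours from postnatal day 28. Each of the 12 mice gave a neural retina and an eye cup, the tissue left after retina removal, with the retinal pigment epithelium (RPE), choroid and sclera, which made 24 libraries in 8 groups of 3.

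Collagens are secreted or membrane-bound proteins whose chains wind around each other in a helix, and some types combine chains of several genes while others are built from the chain of 1 gene. Fibrillar collagens (types I, II, III, V, XI, XXIV and XXVII) form the tensile fibers of the sclera, the corneal stroma, cartilage and the vitreous. The fibril-associated collagens (FACIT) coat those fibers, type VI forms beaded filaments, and type IV forms the sheet-like network of basement membranes, which in the eye underlie the RPE, the vessels, the lens capsule and the inner limiting membrane. Type VIII builds the hexagonal lattice of Descemet's membrane of the cornea, the multiplexins XV and XVIII sit in basement membrane zones, and types XIII, XVII, XXIII and XXV span the cell membrane. The 44 genes were grouped into these classes, with 11 fibrillar, 9 FACIT, 6 type VI, 6 type IV, 4 transmembrane, 3 network-forming (VIII and X), 2 multiplexin, 1 anchoring (VII) and 2 other (XXVI and XXVIII) genes.

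Total counts per library ran from 15825059 to 24908314. Levels are given as the authors' FPKM, which corrects for gene length and was the scale used whenever one gene is set beside another, and summed marker lists are given as CPM, counts scaled to library size. The 14 rod genes summed to 54685 to 80018 CPM in the retinas and the 12 RPE genes to 9956 to 57927 CPM in the eye cups, against 614 to 1064 CPM of the RPE list in the retinas, so the dissected tissues carried the markers of their labels. The eye cups also held other markers. The rod list ran from 3453 to 55579 CPM in them, and a list of 9 surface epithelium genes ran from 1501 to 37187 CPM, against 3.07 to 18.1 CPM in the retinas. The skeletal muscle list of 10 genes ran from 298 to 3177 CPM in the eye cups. Of the 12 retinas, those of wildtype mice 1 and 2 with dox stood apart in lens crystallin RNA, at 12032 and 5307 CPM over 15 genes, against 28.9 to 946 CPM in the other 10. The groups were not balanced for sex. Xist exceeded the Y-linked Ddx3y in 3 of 3 PRDM13-OE mice with dox, in 2 of 3 untreated PRDM13-OE mice, in 2 of 3 wildtype mice with dox and in 1 of 3 untreated wildtype mice. In bulk tissue, fewer cells of a type and less RNA per cell cannot be told apart.

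The summed level of the 44 genes was higher in the eye cup than in the retina of every mouse. It ran from 266 to 1331 FPKM (median 795) in the 12 eye cups and from 57.4 to 253 FPKM (median 88.0) in the 12 retinas. In the eye cups the network-forming genes made up a median 25.3% of this sum (range, 14.5% to 36.2%), the fibrillar genes 22.4% (15.5% to 30.4%) and the FACIT genes 18.3% (10.7% to 25.3%). In the retinas the FACIT genes led with a median of 27.5% (10.9% to 32.6%), followed by the transmembrane genes with 20.6% (7.53% to 31.4%) and type IV with 17.2% (13.9% to 65.4%). The network-forming genes were a median 3.86% there.

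**Figure D1:**
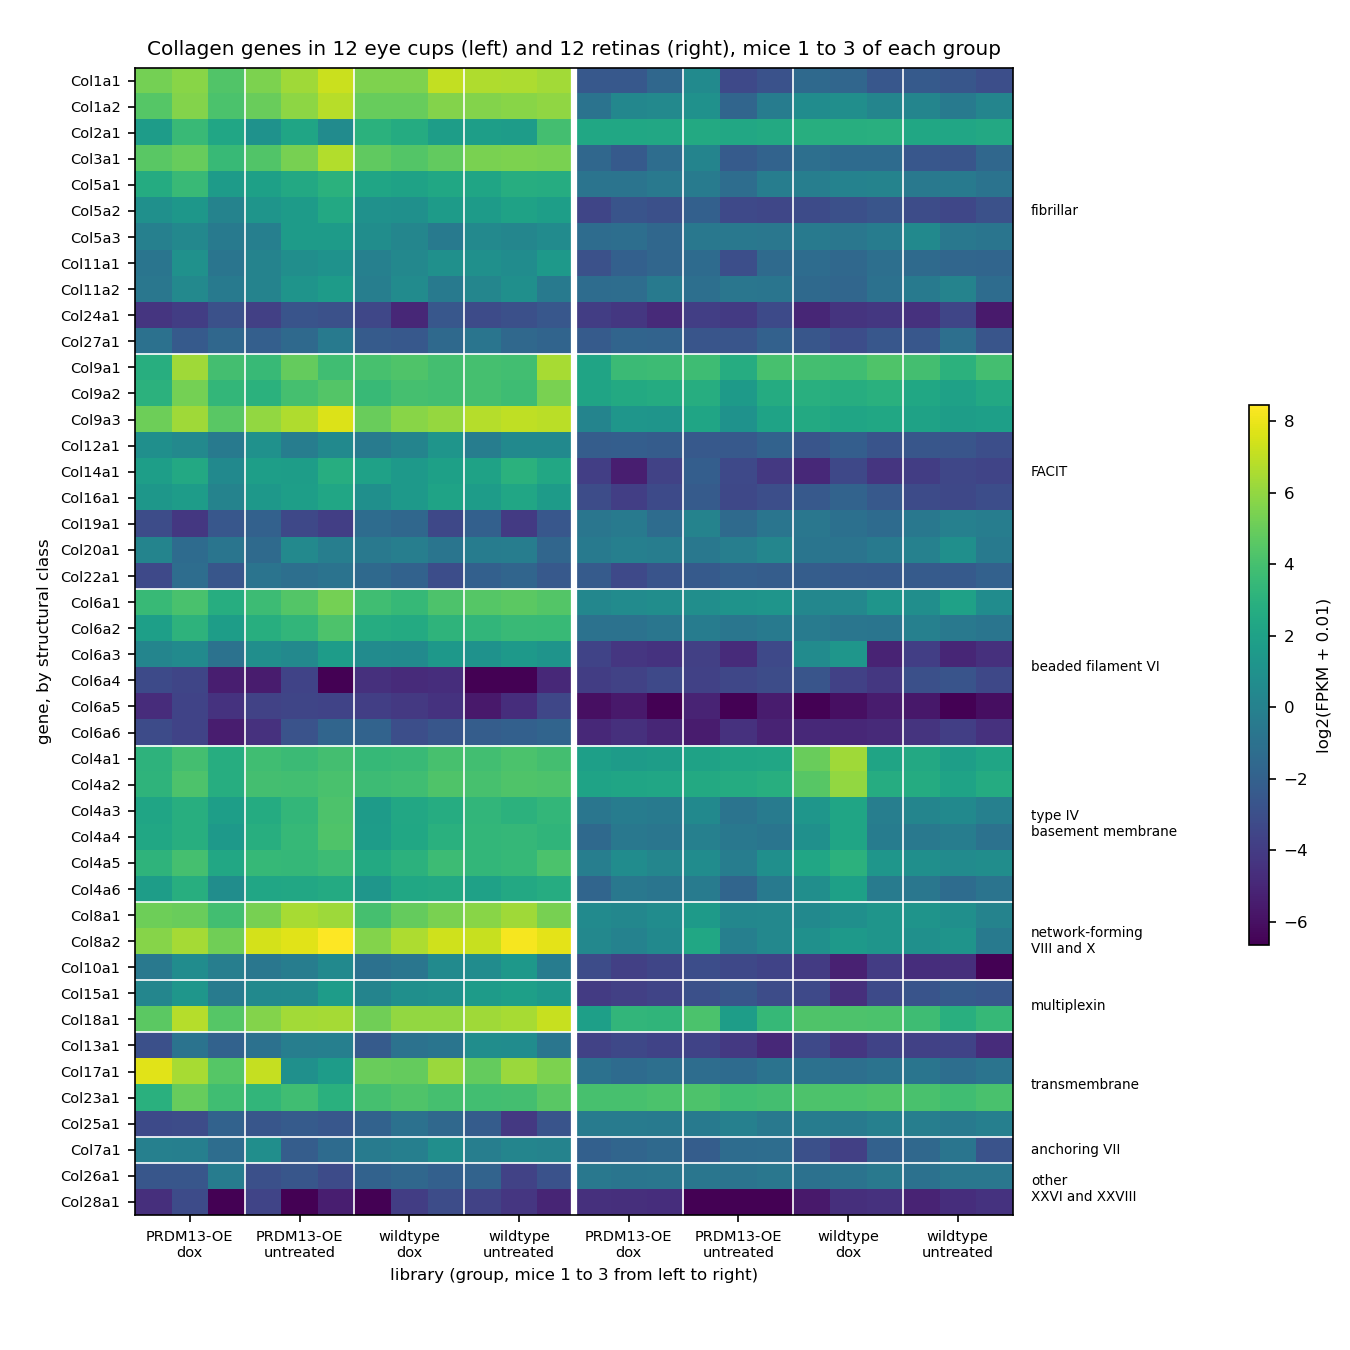
Level of each of the 44 collagen genes, as log2(FPKM + 0.01), in 24 libraries. Rows are genes in structural classes and columns are libraries, with the 12 eye cups on the left and the 12 retinas on the right, mice 1 to 3 from left to right in each group. Most fibrillar, type VI and network-forming genes are brighter in the eye cups, and the 6 type IV genes and Col6a3 are brighter in wildtype retinas 1 and 2 with dox than in the other 10 retinas.

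Col8a2, a chain of type VIII, had the highest mean level of the collagen genes in the eye cups, with a lowest, median and highest value of 35.9, 155 and 351 FPKM. Its partner Col8a1 was seventh, at 14.7, 41.0 and 88.7 FPKM. Between them came Col9a3 (23.7, 72.5 and 204 FPKM), Col1a1 (20.6, 65.4 and 154 FPKM), Col18a1 (22.5, 71.3 and 145 FPKM), Col17a1 (1.89, 37.9 and 220 FPKM) and Col1a2 (18.1, 50.1 and 112 FPKM). Col3a1, the type III chain of stretchable tissues, reached 11.8, 29.7 and 106 FPKM, Col9a1 7.08, 15.8 and 89.2 FPKM, and Col6a1 6.79, 18.0 and 38.6 FPKM. The ranges of neighbors in this order overlapped widely across the 12 eye cups.

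The 10 leading genes of the retina included Col8a2, Col9a1, Col9a3 and Col18a1 as well, in another order. Col23a1, a transmembrane collagen, had the highest mean, with 14.2, 17.3 and 19.5 FPKM over the 12 retinas, the smallest ratio of highest to lowest value (1.37) among the 10 leading genes. Col9a1 followed with 4.51, 14.1 and 19.9 FPKM, and then by mean Col4a1 and Col18a1, the latter with 3.45, 11.1 and 19.7 FPKM. Col4a1 and Col4a2 lay at medians of 4.64 and 6.25 FPKM but reached 80.1 and 63.3 FPKM in wildtype retina 2 with dox. Col2a1, the main fibrillar chain of the vitreous, lay at 4.95, 5.47 and 7.32 FPKM, Col9a2 at 3.05, 5.99 and 7.80 FPKM, and Col9a3 at 1.12, 3.93 and 5.77 FPKM. Col4a5 (0.82, 1.63 and 8.49 FPKM) and Col8a2 (0.73, 1.67 and 5.10 FPKM) completed the leading 10.

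The eye cup was compared with the retina over all 24 libraries with edgeR's quasi-likelihood test, and calls required a log2 fold change beyond 1 in either direction together with a Benjamini-Hochberg adjusted p below 0.05. All 44 genes were tested, without pairing the retina and eye cup of a mouse. Of these, 32 were higher in the eye cup, where 24.2% of all 26034 genes tested were called higher. The test called 4 lower, against 18.4% of all genes, and 8 were not called. The median log2 fold change of the 44 genes was 2.56 (-0.01 over all genes tested). In 24 genes the eye cup lay above the retina in all 12 mice, as it did in 20.5% of all genes with at least 10 counts.

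**Figure D2:**
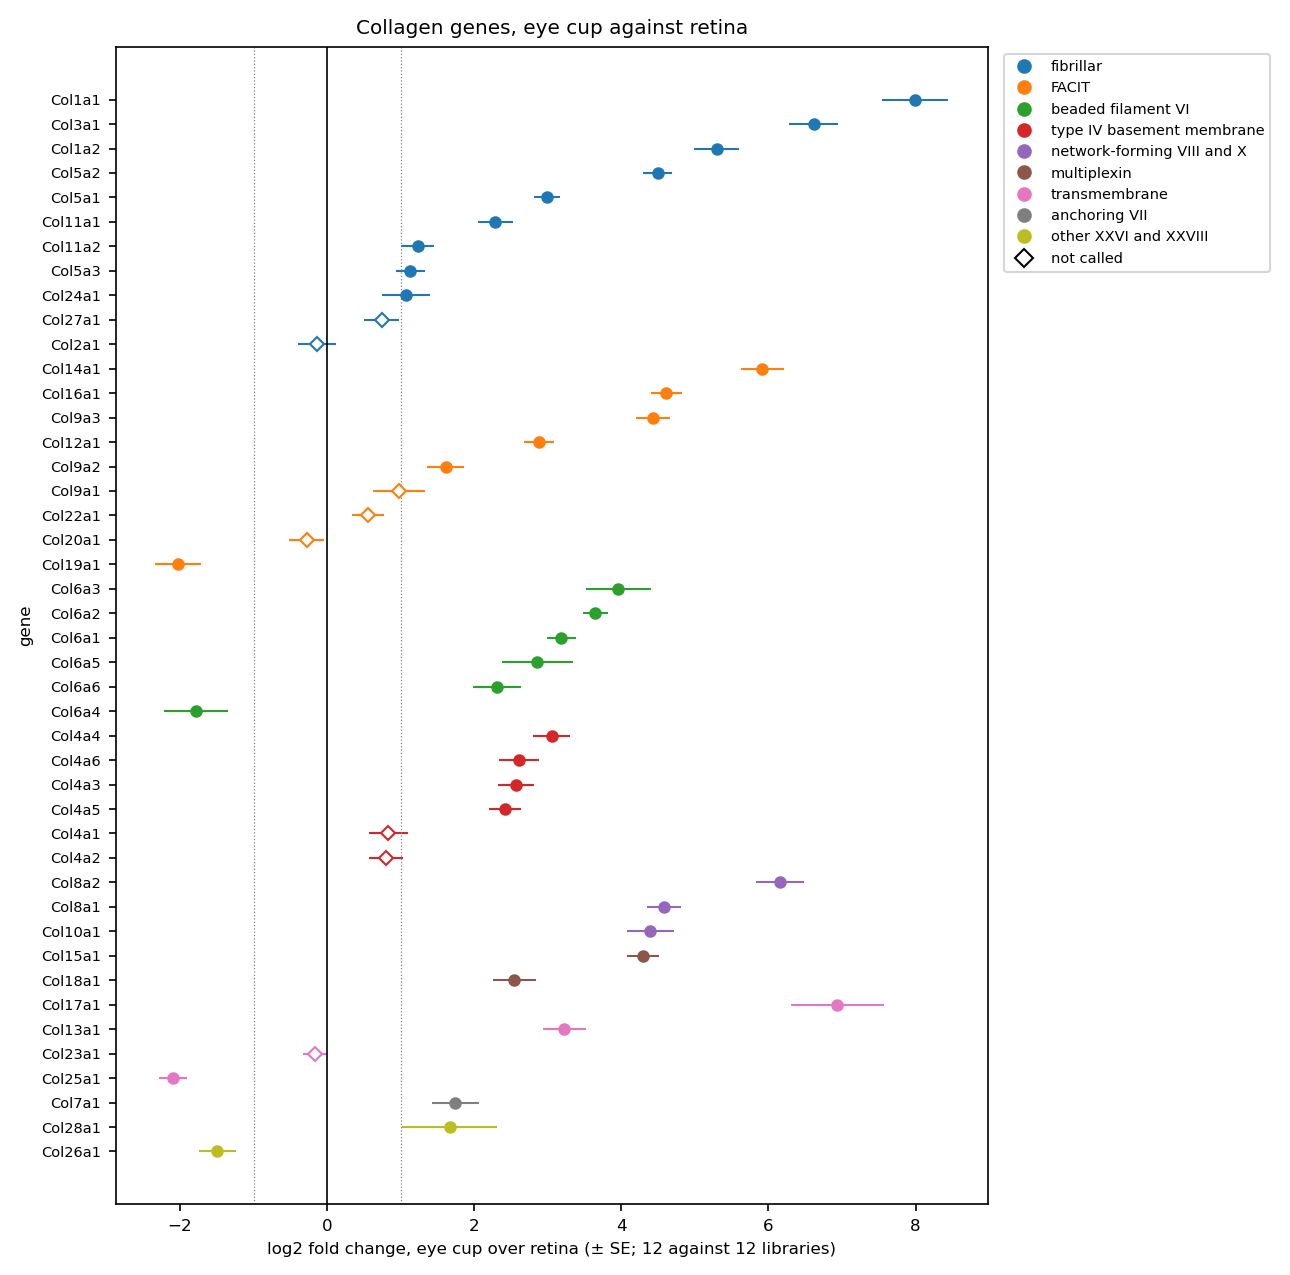
Log2 fold change of each collagen gene, eye cup over retina, with its standard error (12 against 12 libraries, edgeR), ordered within structural classes, with dotted lines at -1 and 1. Filled circles were called and open diamonds were not. Col1a1 lies farthest to the right at 7.99, and Col25a1 and Col19a1 lie farthest to the left, near -2.

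Of the fibrillar genes, 9 of 11 were higher in the eye cup. Col1a1 was higher in the eye cup by a log2 fold change of 7.99 ± 0.45 (SE; adjusted p = 5.92e-12), Col3a1 by 6.61 ± 0.34 (adjusted p = 1.40e-12) and Col1a2 by 5.30 ± 0.31 (adjusted p = 8.85e-12). Col1a1 lay at 0.09, 0.17 and 1.50 FPKM in the retinas (lowest, median and highest), where Col1a2 lay at 0.29, 1.15 and 1.96 FPKM. Type I collagen is usually assembled from a pair of Col1a1 chains and 1 Col1a2 chain. The ratio of Col1a1 to Col1a2 RNA was 1.06 to 2.65 (median 1.45) in the eye cups and 0.10 to 0.77 (median 0.20) in the retinas. The type V chains Col5a1 and Col5a2 were higher by 2.99 ± 0.18 and 4.49 ± 0.20, and the type XI chains Col11a1 and Col11a2 by 2.29 ± 0.24 and 1.23 ± 0.22. Col2a1 was not called, at -0.14 ± 0.26 (adjusted p = 0.67), with 1.58, 4.06 and 15.1 FPKM in the eye cups. Its eye cup value was above the retina in 3 of 12 mice. Col27a1 was not called either, at 0.74 ± 0.24. The remaining 2 genes, Col5a3 and Col24a1, were called at 1.13 ± 0.20 and 1.07 ± 0.33, both close to the cutoff.

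Of the FACIT genes, 5 of 9 were higher, led by Col14a1 at 5.91 ± 0.29 and Col16a1 at 4.61 ± 0.21. The 3 chains of type IX, which decorates type II fibers in cartilage and vitreous, parted. Col9a3 was higher by 4.43 ± 0.23, Col9a2 by 1.61 ± 0.25, and Col9a1 was not called at 0.98 ± 0.36, just under the cutoff. Col9a1 was called in 18 of 34 alternatives, with values from 0.59 to 1.65 over all of them. The ratio of Col9a3 to Col9a2 was 1.99 to 9.54 (median 4.33) in the eye cups and 0.25 to 0.86 (median 0.69) in the retinas, and the ranges did not overlap. Col22a1 (0.55 ± 0.22) and Col20a1 (-0.28 ± 0.24) were not called. Col19a1 was lower in the eye cup by -2.03 ± 0.31 (adjusted p = 7.51e-06) and lay below the retina in all 12 mice.

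Type VI genes fell into a high and a low set. Col6a1, Col6a2 and Col6a3, the chains of the common type VI filament of connective tissue, were higher by 3.19 ± 0.20, 3.65 ± 0.17 and 3.96 ± 0.44. Col6a6 was also called higher, at 2.31 ± 0.33. Col6a5 was called higher on few reads, since it had at most 3 counts in every retina and 2 to 16 in the eye cups, and its fold change is not given. Col6a4 was lower by -1.79 ± 0.43 (adjusted p = 0.00111), at no more than 0.15 FPKM in any library.

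All 6 type IV genes had log2 fold changes above 0, and 4 were called. These were Col4a4 (3.05 ± 0.25), Col4a6 (2.61 ± 0.27), Col4a3 (2.57 ± 0.24) and Col4a5 (2.42 ± 0.22), the chains of the networks in specialized basement membranes. Col4a1 and Col4a2, the chains of the network found in almost every basement membrane, were not called, at 0.83 ± 0.26 (adjusted p = 0.00850) and 0.80 ± 0.23 (adjusted p = 0.00481). Without wildtype retinas 1 and 2 with dox they were called, at 1.65 and 1.41.

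The 3 network-forming genes were all higher, Col8a2 by 6.16 ± 0.33, Col8a1 by 4.58 ± 0.23 and Col10a1, best known from growth plate cartilage, by 4.39 ± 0.32. Col10a1 had only 0 to 6 counts in the retinas, and its fold change ran from 4.17 to 6.29 over the alternatives. The ratio of Col8a2 to Col8a1 was 1.50 to 5.65 (median 3.23) in the eye cups and 0.69 to 1.68 (median 0.93) in the retinas. Both multiplexins were higher, Col15a1 by 4.29 ± 0.22 and Col18a1, the source of endostatin, by 2.55 ± 0.29.

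The transmembrane genes went in both directions. Col17a1, a component of the hemidesmosomes that anchor surface epithelia, was higher by 6.93 ± 0.63 (adjusted p = 6.31e-09) and Col13a1 by 3.23 ± 0.29. Col23a1 was not called, at -0.16 ± 0.17 (adjusted p = 0.41). Col25a1, a neuronal collagen, was lower by -2.10 ± 0.20 (adjusted p = 9.76e-09), at 0.05, 0.18 and 0.49 FPKM in the eye cups against 0.69, 0.76 and 0.95 FPKM in the retinas, with no overlap. Col7a1, which forms the anchoring fibrils under stratified epithelium, was higher by 1.75 ± 0.32. Col26a1 was lower by -1.50 ± 0.25. Col28a1 was called higher at 1.66 ± 0.65 (adjusted p = 0.0306) on 0 to 12 counts per library, and the call was lost with the mouse as a block (0.75, adjusted p = 0.31) and without any 1 of 4 eye cups, those of PRDM13-OE mouse 2 with dox (1.34), untreated PRDM13-OE mouse 1 (1.15), wildtype mouse 3 with dox (1.47) and untreated wildtype mouse 1 (1.53).

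Genes that act on collagen were counted from lists of the same pathway. Of 18 genes of chain modification and folding, 10 were higher in the eye cup and 0 lower, among them the prolyl 4-hydroxylase subunit P4ha3 (4.16 ± 0.33), Serpinh1, the collagen chaperone (3.58 ± 0.18), and Crtap, part of the prolyl 3-hydroxylase complex (3.11 ± 0.16). Of 13 genes of propeptide cleavage and cross-linking, 9 were higher, including the enhancer of procollagen processing Pcolce (5.65 ± 0.31) and the cross-linking oxidase Lox (4.56 ± 0.27). The proteases Adamts3 (-2.34 ± 0.23) and Tll1 (-1.89 ± 0.17) were lower, named here after their values were seen. All 10 leucine-rich proteoglycans, which bind fibrils and set their spacing, were higher, with Kera of the corneal stroma at 8.96 ± 0.52 and Dcn at 8.10 ± 0.51. Of 15 laminins and other basement membrane partners, 12 were higher, of 7 collagen receptors 5, and of the 9 breakdown genes tested 8, while the gelatinase Mmp9 was lower (-1.99 ± 0.35).

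Single collagen genes also varied between eye cups of 1 group. Col17a1 had the largest ratio of highest to lowest value among the 10 leading genes (116), at 220, 90.6 and 22.6 FPKM in PRDM13-OE mice 1 to 3 with dox and at 139, 1.89 and 3.20 FPKM in the untreated ones. Wildtype eye cups held 31.6, 29.3 and 73.3 FPKM with dox and 29.9, 73.6 and 44.2 FPKM untreated. The highest value and the lowest 2 were thus all in PRDM13-OE mice. The surface epithelium list was highest in the eye cup with the most Col17a1, at 37187 CPM, and its lowest 2 values, 1614 and 1501 CPM, were in untreated PRDM13-OE mice 2 and 3, the 2 with the least. Krt12, a keratin of the corneal epithelium, reached 4583 CPM in the first of these and 19.2 and 2.62 CPM in the other 2. The part of these markers in the Col17a1 values was not tested.

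Col9a1 was high in 2 eye cups. It stood at 80.0 FPKM in PRDM13-OE mouse 2 with dox and at 89.2 FPKM in untreated wildtype mouse 3, against 7.08 to 29.4 FPKM in the other 10. Col2a1 (12.0 and 15.1 FPKM), Col9a2 (39.8 and 43.2 FPKM) and Col18a1 (108 and 145 FPKM) had their highest 2 values in the same eye cups. The other 10 held 1.58 to 7.83 FPKM of Col2a1, 7.99 to 21.4 FPKM of Col9a2 and 22.5 to 88.8 FPKM of Col18a1. The fibroblast list also had its highest 2 values there, at 2027 and 1880.1 CPM against 487 to 1660.4 CPM in the other 10, and its part was not tested. The cartilage list of 7 genes was at 27.6 and 47.2 CPM in these 2 eye cups, within its range of 16.9 to 59.8 CPM over all 12, and its matrilin gene Matn1 had at most 3 counts in every library.

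**Figure D3:**
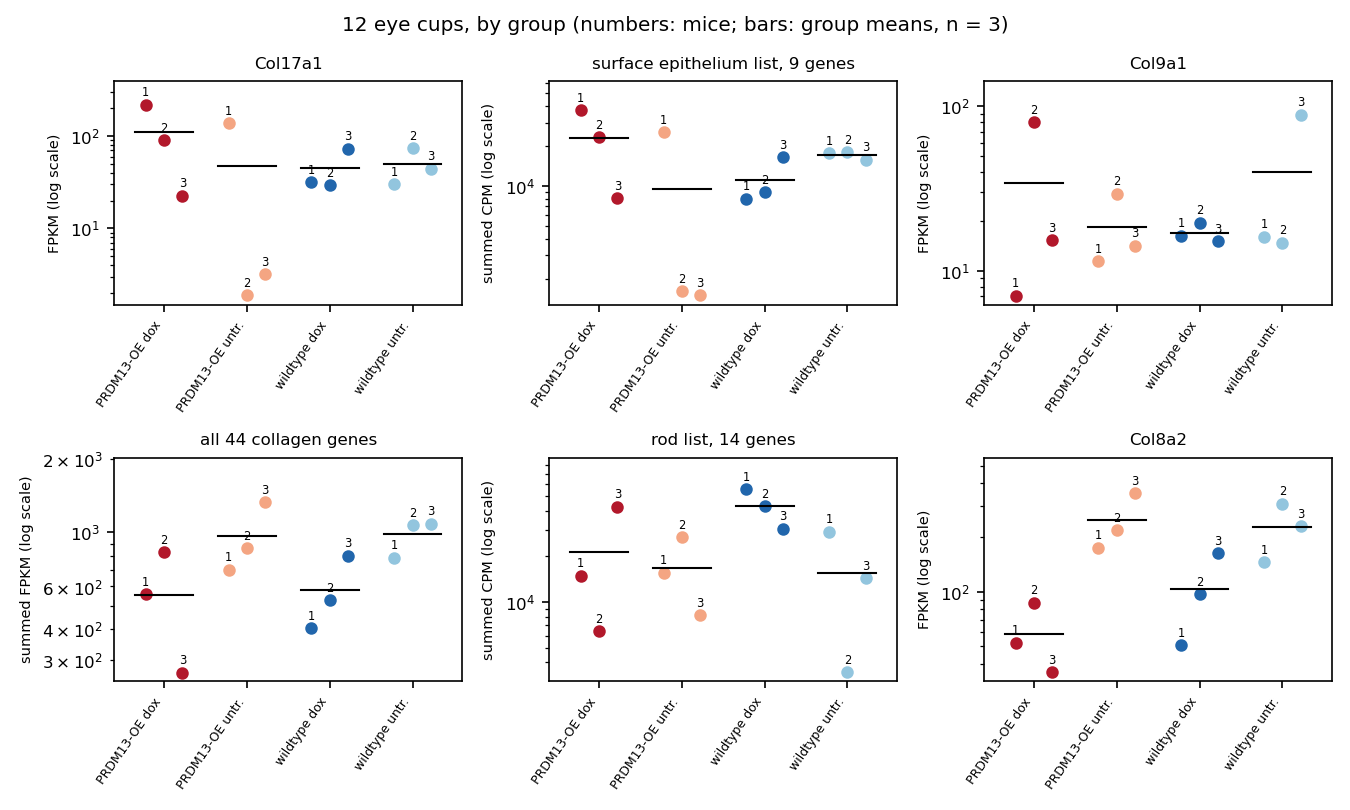
Col17a1, Col9a1 and Col8a2 (FPKM), the summed FPKM of the 44 collagen genes, and the summed CPM of the surface epithelium and rod lists in the 12 eye cups, all on log axes. Points are libraries, numbers are mice, and bars are group means (n = 3). Col17a1 and the surface epithelium list are lowest in untreated PRDM13-OE mice 2 and 3, and Col9a1 is high in PRDM13-OE mouse 2 with dox and untreated wildtype mouse 3.

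In the eye cups no collagen gene was called in any comparison of the groups by edgeR. Between PRDM13-OE and wildtype mice with dox, 0 of 44 genes were called (0.0184% of all genes tested), 1 had an unadjusted p under 0.05 (2.27%, against 8.24% of all genes tested), and DESeq2 called 0. The smallest p values were those of Col25a1 (-1.22 ± 0.50), Col6a6 (-1.51 ± 0.70) and Col6a3 (-0.85 ± 0.40), each with an adjusted p of 0.597. The summed collagen level was 559, 830 and 266 FPKM in PRDM13-OE eye cups with dox and 405, 527 and 802 FPKM in wildtype ones, and the groups overlapped.

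Between wildtype mice with dox and untreated ones, 0 were called in the eye cup (0.0% of all genes tested), although 14 of 44 had an unadjusted p under 0.05, 13 of them lower with dox. This share of 31.8% is close to the 29.9% of all genes tested. Col9a3 (-1.20 ± 0.25) and Col3a1 (-0.73 ± 0.16) came nearest, with an adjusted p of 0.0673, followed by Col15a1 (-0.94 ± 0.24, adjusted p = 0.0732). Col9a3 stood at 32.0, 53.7 and 65.7 FPKM with dox and at 109, 127 and 120 FPKM without, and the groups did not overlap. DESeq2 called 1 higher (Col25a1) and 3 lower (Col9a3, Col8a2 and Col13a1) of the 44, named here after their values were seen. It called 1968 of all 21799 genes with at least 10 counts. The rod list summed to 30498 to 55579 CPM in these eye cups with dox and to 3453 to 29126 CPM without. In a fit over all 12 eye cups Col9a3 was at -1.18 and Col3a1 at -0.70, and with the rod level as a covariate in that fit they were at -0.47 (adjusted p = 0.91) and -0.08 (adjusted p = 0.996). The RPE list summed to 11857 to 26404 CPM with dox and 34358 to 51853 CPM without, with 12 of 12 genes below 0 and 0 called. The fibroblast list summed to 866 to 1202 CPM with dox and 1262 to 1880.1 CPM without, with 8 of 8 genes below 0 at a median of -0.69, and the 8 mural cell genes were all below 0 too. Endothelial genes were below 0 in 11 of 12 (median -0.96) and skeletal muscle genes in 9 of 9 (median -0.75). The part of these 5 lists was not tested.

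Between untreated PRDM13-OE and untreated wildtype mice, 0 eye cup genes were called (0.0% of all genes), 2 had an unadjusted p under 0.05 (4.55%, against 1.87% of all genes tested), and DESeq2 called 0. The smallest p values were those of Col22a1 (1.08 ± 0.36), Col23a1 (-0.82 ± 0.31) and Col15a1 (-0.70 ± 0.35), all with an adjusted p of 1.0. Between PRDM13-OE mice with dox and untreated ones, 0 were called (0.0139% of all genes), 8 had an unadjusted p under 0.05, all lower with dox (18.2% against 4.14% of all genes tested), and DESeq2 called Col8a2. Col8a2 was at 52.3, 87.0 and 35.9 FPKM with dox and at 175, 219 and 351 FPKM without. The groups did not overlap, and the log2 fold change was -2.06 ± 0.44 (adjusted p = 0.975, unadjusted p = 0.00229). The RPE list did not overlap either, at 9956 to 25208 CPM with dox and 26998 to 57927 CPM without, with 11 of 12 genes below 0 and 0 called. Nor did the myelinating and Schwann cell list, at 226 to 1122 CPM with dox and 1418 to 6930.0 CPM without, with 4 of 4 genes below 0. Endothelial genes were below 0 in 12 of 12 (median -0.38) and surface epithelium genes above 0 in 9 of 9, with 0 called, and the part of these lists was not tested. Col8a1 (-1.31 ± 0.42) and Col4a4 (-1.32 ± 0.47) came next with the same adjusted p. In the wildtype, Col8a2 was at 50.8, 97.4 and 163 FPKM with dox and at 146, 308 and 230 FPKM without.

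The interaction of genotype and dox, fitted over the 12 eye cups, called 0 collagen genes (0.0% of all genes). No collagen gene had an unadjusted p under 0.05, against 6.4% of all genes tested, and DESeq2 called 0. The smallest p values were those of Col25a1 (-1.62 ± 0.75), Col9a1 (2.16 ± 1.22) and Col2a1 (1.62 ± 0.96), each with an adjusted p of 0.753. The fold changes of Col9a1 and Col2a1 rest on single libraries, being 0.58 and 0.90 without PRDM13-OE eye cup 2 with dox and at 0.78 and 0.49 without untreated wildtype eye cup 3.

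**Figure D4:**
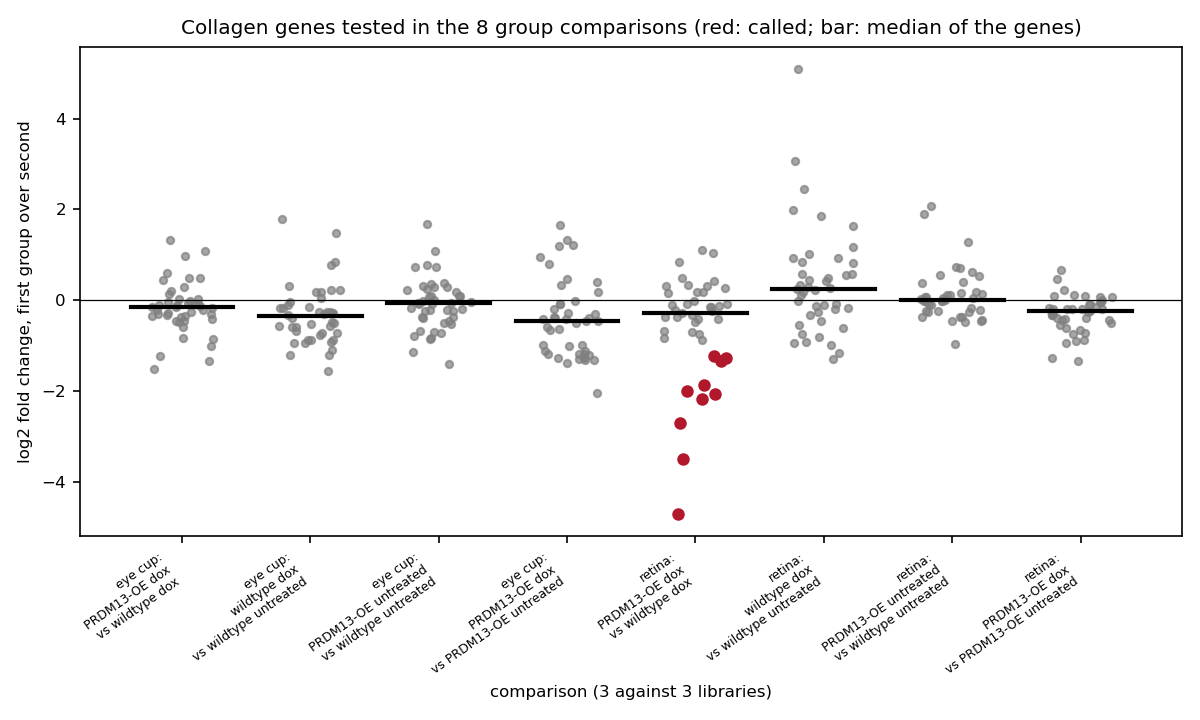
Log2 fold changes of the collagen genes tested in the 8 comparisons of 3 against 3 libraries, first group over second. Points are genes, red points were called, and bars are the medians over the genes. The 10 called genes all belong to the retina of PRDM13-OE against wildtype mice with dox, where the median of the genes is -0.29.

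In the retina, PRDM13-OE mice with dox were compared with wildtype mice with dox. Of 43 collagen genes tested, 0 were called higher and 10 lower, where 1.5% of all 20560 genes tested were called lower. The 10 were the 6 type IV genes, Col6a3, Col9a3, Col18a1 and Col16a1. The median log2 fold change was -0.29 over the collagen genes and 0.01 over all genes tested. DESeq2 called 9 lower and 1 higher, Col7a1.

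The type IV genes lie in 3 pairs on opposite strands. In the deposited GRCm39 positions, Col4a1 (minus strand, start site chr8:11362826) and Col4a2 (plus strand, start site chr8:11362805) overlap by 22 bases at their 5′ ends, Col4a4 and Col4a3 have 71 bases between their start sites on chromosome 1 (82564570 and 82564642), and Col4a6 and Col4a5 have 1308 bases between theirs on chromosome X. Strand-specific counting is not stated, so reads in the overlap of Col4a1 and Col4a2 cannot be assigned to either with certainty. Because all 6 type IV genes were called in the same direction, 3 start regions are shown: those of Col4a1 and Col4a2, which face each other, and that of Col4a4, from another pair (RefSeq, GRCm38.p6, 250 bases before to 50 after the start, 5′ to 3′ on the strand of the gene), with CCAAT and GGGCGG, read on either strand, in capitals.
Col4a1, chr8:11312777-11313076, minus strand: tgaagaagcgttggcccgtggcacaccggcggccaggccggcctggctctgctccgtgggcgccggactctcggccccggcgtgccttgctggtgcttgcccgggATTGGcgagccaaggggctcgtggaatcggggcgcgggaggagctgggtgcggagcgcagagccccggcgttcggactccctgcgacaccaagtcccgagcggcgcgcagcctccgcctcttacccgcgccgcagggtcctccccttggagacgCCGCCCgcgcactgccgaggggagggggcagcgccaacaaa
Col4a2, chr8:11312555-11312854, plus strand: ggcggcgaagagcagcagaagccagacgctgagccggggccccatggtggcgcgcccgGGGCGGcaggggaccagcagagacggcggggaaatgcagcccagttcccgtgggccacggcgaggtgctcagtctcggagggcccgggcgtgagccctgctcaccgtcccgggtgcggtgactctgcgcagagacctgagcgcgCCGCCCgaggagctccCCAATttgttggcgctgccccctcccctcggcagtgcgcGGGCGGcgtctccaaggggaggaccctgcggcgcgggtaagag
Col4a4, chr1:82586800-82587099, minus strand: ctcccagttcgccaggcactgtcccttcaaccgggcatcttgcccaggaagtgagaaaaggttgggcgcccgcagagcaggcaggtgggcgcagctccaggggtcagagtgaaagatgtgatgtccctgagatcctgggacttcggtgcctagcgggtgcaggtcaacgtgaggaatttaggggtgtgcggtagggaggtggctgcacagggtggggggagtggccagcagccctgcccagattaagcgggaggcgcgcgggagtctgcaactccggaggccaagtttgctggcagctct
The windows of Col4a1 and Col4a2 overlap by 78 bases and share a GGGCGG. Col4a1 held 1 CCAAT and 1 GGGCGG, Col4a2 1 and 3, and Col4a4 neither. Of all 32851 windows in the RefSeq table, 37.4% held a CCAAT and 35.7% a GGGCGG. Windows were present for 35 of the 44 collagen genes (38 windows), and 34.2% and 60.5% of these held the motifs.

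Col4a1 was at 3.63, 3.17 and 3.31 FPKM in PRDM13-OE retinas 1 to 3 with dox and at 32.3, 80.1 and 4.58 FPKM in wildtype retinas 1 to 3 with dox. Its log2 fold change was -3.50 ± 0.69 (adjusted p = 0.00636). Untreated retinas held 4.16, 4.71 and 4.91 FPKM (PRDM13-OE) and 5.49, 3.58 and 4.76 FPKM (wildtype). The groups with dox did not overlap, but the difference lay in wildtype retinas 1 and 2, and the third was within the range of the untreated ones.

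Col4a2 had the same pattern, at 4.37, 4.64 and 4.89 FPKM in PRDM13-OE and 23.4, 63.3 and 6.46 FPKM in wildtype retinas with dox (-2.71 ± 0.57, adjusted p = 0.00867). The ratio of Col4a1 to Col4a2, between 0.80 and 0.97 in the eye cups, was above 1 only in wildtype retinas 1 and 2 with dox, where it reached 1.38, and it was as low as 0.68 among the other 10. Col4a4 (-2.17 ± 0.49), Col4a5 (-2.06 ± 0.36), Col4a6 (-2.00 ± 0.47) and Col4a3 (-1.87 ± 0.43) were lower with adjusted p values of 0.00313 to 0.0156. In all 4, wildtype retinas 1 and 2 with dox lay above the other 10 retinas, as in Col4a5, at 4.92 and 8.49 FPKM against 0.82 to 2.44 FPKM.

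Col6a3 had the most negative log2 fold change, at 0.07, 0.04 and 0.04 FPKM in PRDM13-OE and 1.53, 2.43 and 0.02 FPKM in wildtype retinas with dox (-4.71 ± 1.04, adjusted p = 0.0121). These were 345 and 583 counts in wildtype retinas 1 and 2, and at most 19 counts in the other 10. The groups overlapped, because the third wildtype retina was the lowest of the 12. Untreated retinas held 0.06, 0.03 and 0.09 FPKM (PRDM13-OE) and 0.06, 0.02 and 0.03 FPKM (wildtype). The PRDM13-OE values with dox lay within this range. Col6a1 (-0.09 ± 0.23) and Col6a2 (-0.23 ± 0.17), which form a filament with Col6a3, were not called.

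**Figure D5:**
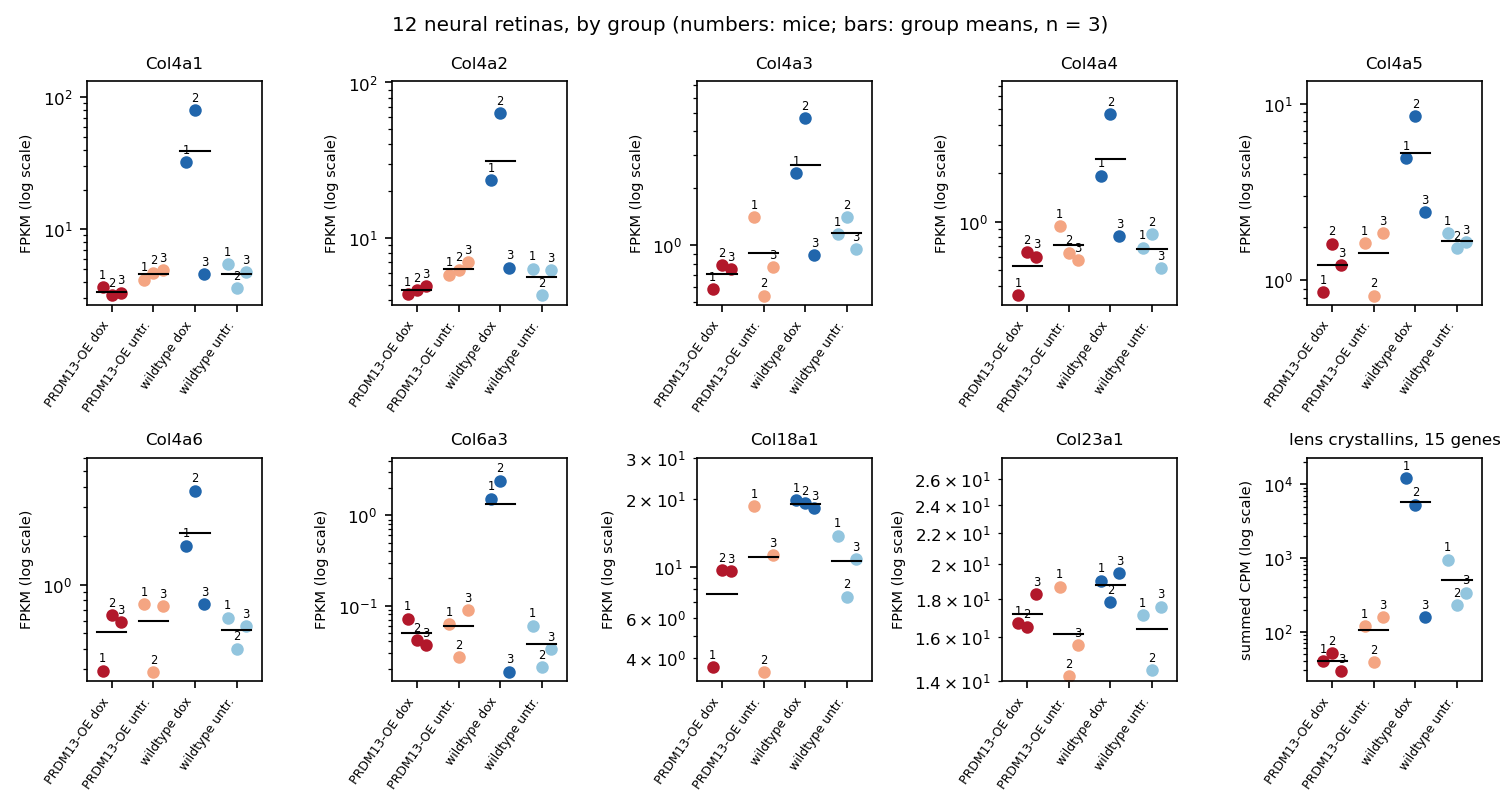
The 6 type IV genes, Col6a3, Col18a1 and Col23a1 (FPKM) and the summed CPM of 15 lens crystallins in the 12 retinas, on log axes. Points are libraries, numbers are mice, and bars are group means (n = 3). The type IV genes, Col6a3 and the crystallins are high in wildtype retinas 1 and 2 with dox, at up to 80.1 FPKM for Col4a1, and Col18a1 is high in all 3 wildtype retinas with dox.

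Of all 44 genes, 8 were higher in both wildtype retinas 1 and 2 with dox than in each of the other 10 retinas, namely the type IV genes, Col6a3 and Col18a1. Over all genes with at least 10 counts in the retinas, 3.29% had this order. These were also the 2 retinas with the highest crystallin sum. All 15 crystallins were called lower in PRDM13-OE than in wildtype retinas with dox, at 28.9 to 51.3 CPM against 156 to 12032 CPM in sum. In a fit over the 12 retinas with the crystallin level as a covariate, 0 collagen genes were called (9 lower in the same fit without it), with Col4a1 at -0.08, Col6a3 at 1.84, Col9a3 at -0.98 (adjusted p = 0.26) and Col16a1 at -0.88 (adjusted p = 0.58). Without wildtype retinas 1 and 2 with dox, which leaves a lone retina in that group that is assumed to vary like the other groups, 0 were called as well, Col4a1 stood at -0.40 ± 0.17 (adjusted p = 0.26), and Col6a3 turned to 1.43 ± 0.89. With edgeR's robust fit 1 collagen gene was called, Col16a1, and the adjusted p of Col4a1 was 0.15. With PRDM13-OE retina 1, 2 or 3 with dox left out, 5, 4 and 6 collagen genes were called, counts that are not limited to the 10 of the main fit.

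Col9a3, Col18a1 and Col16a1 were called as well, and in each the groups with dox did not overlap. Col9a3 was at 1.12, 2.45 and 2.37 FPKM in PRDM13-OE and 5.77, 4.69 and 5.04 FPKM in wildtype retinas with dox (-1.34 ± 0.21, adjusted p = 0.00166). Untreated retinas held 4.71, 2.10 and 4.30 FPKM (PRDM13-OE) and 4.14, 3.37 and 3.72 FPKM (wildtype). Without wildtype retinas 1 and 2 the fold change was -1.30 ± 0.35 (adjusted p = 0.0575).

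Col18a1 was at 3.64, 9.72 and 9.57 FPKM in PRDM13-OE and 19.7, 19.1 and 18.1 FPKM in wildtype retinas with dox (-1.27 ± 0.26, adjusted p = 0.00718). The untreated retinas spread from 3.45 to 18.5 FPKM, and 2 of the 3 wildtype retinas with dox lay above them. Col16a1 was at 0.10, 0.06 and 0.09 FPKM against 0.17, 0.27 and 0.17 FPKM (-1.23 ± 0.35, adjusted p = 0.0381). This call was lost in 10 of 17 alternatives, among them DESeq2 (adjusted p = 0.0708), the replicate block (adjusted p = 0.0678) and the omission of any single retina except wildtype retina 3 (adjusted p = 0.0548 to 0.152). Without wildtype retinas 1 and 2 the fold changes were -1.20 ± 0.55 (adjusted p = 0.31) for Col18a1 and -0.97 ± 0.52 (adjusted p = 0.39) for Col16a1. Col18a1, Col9a1 and Col9a3 had their lowest 2 values in PRDM13-OE retina 1 with dox and untreated PRDM13-OE retina 2, where the fibroblast list of 8 genes was also lowest, at 24.4 and 22.5 CPM against 69.1 to 201 CPM in the other 10.

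Col2a1 differed by less but with little spread, and is described here after its values were seen. It was at 5.02, 5.19 and 5.37 FPKM in PRDM13-OE and 7.00, 7.14 and 7.32 FPKM in wildtype retinas with dox (-0.42 ± 0.05, adjusted p = 0.000354), under the fold cutoff. The untreated retinas were at 5.85, 5.24 and 5.80 FPKM (PRDM13-OE) and 5.19, 4.95 and 5.56 FPKM (wildtype). The 3 wildtype retinas with dox were thus above the other 9. Without the first 2 of them the fold change was -0.45 ± 0.09 (adjusted p = 0.0129), and with the crystallin covariate it was -0.43 ± 0.11 (adjusted p = 0.0529).

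Other markers also moved between the groups with dox. The endothelial list of 12 genes, a source of vascular basement membrane, summed to 239 to 267 CPM in PRDM13-OE and 432 to 457 CPM in wildtype retinas with dox, with 11 of 12 genes below 0 and 1 called lower. The rod list summed to 54685 to 61209.5 and 73427 to 75719 CPM, with 14 of 14 genes below 0 and 1 called. The RPE list summed to 616 to 638 and 823 to 877 CPM, with 11 of 12 genes below 0 and 3 called. Of the 8 mural cell genes all were below 0 and 2 were called, and of the 8 fibroblast genes 6 were below 0 and 1 was called. Surface epithelium genes were below 0 in 7 of 7 tested (median -1.055), with 1 called. Their list was at 10.4 and 18.1 CPM in wildtype retinas 1 and 2 with dox. Myelinating and Schwann cell genes were below 0 in 3 of 4, with 1 called. The part of these markers in the collagen differences was not tested.

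Of the genes that act with collagen, 3 of 15 basement membrane partners were called lower in the same comparison, where 1.5% of all genes tested were. Among them were Nid1, which links laminin to type IV collagen (-3.70 ± 0.75), and the perlecan gene Hspg2 (-2.84 ± 0.67). Of 8 leucine-rich proteoglycans tested, Ogn (-1.83 ± 0.39) and Fmod (-1.15 ± 0.27) were lower. No gene was called among the 18 for chain modification, the 13 for cleavage and cross-linking, the 7 receptors and the 8 breakdown genes tested. These counts come from the main fit, which includes wildtype retinas 1 and 2 with dox. Their values without these retinas or with the crystallin covariate are not given here.

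The other comparisons of 3 against 3 retinas called no collagen gene. Between wildtype mice with dox and untreated ones, 0 of 43 were called by edgeR or DESeq2 (0.00485% of all genes by edgeR), although 22 had an unadjusted p under 0.05, 51.2% against 9.32% of all genes tested. These included the 6 type IV genes and Col6a3 (5.09 ± 1.09, adjusted p = 0.21). Col2a1 (0.43 ± 0.06, adjusted p = 0.0591), Col18a1 (0.81 ± 0.16, adjusted p = 0.16) and Col4a5 (1.64 ± 0.33, adjusted p = 0.17) had the smallest p values. The crystallins were above 0 in 15 of 15 genes (median 3.29 on the log2 scale), RPE genes in 12 of 12 (823 to 877 CPM with dox and 723 to 774 CPM without) and fibroblast genes in 7 of 8 (140 to 201 and 69.1 to 106 CPM), with 0 called. Surface epithelium genes were above 0 in 7 of 7 tested (median 2.35), with the list at 10.4 and 18.1 CPM in wildtype retinas 1 and 2 with dox, mural cell genes in 7 of 8 (median 0.58) and endothelial genes in 11 of 12 (median 0.13), also with 0 called. With the crystallin level as a covariate over all 12 retinas, Col4a1 was at 1.39 (adjusted p = 0.77), Col6a3 at 1.97 (adjusted p = 0.77) and Col2a1 at 0.43 (adjusted p = 0.35), and the part of the other lists was not tested. This comparison shares its wildtype retinas with dox with the one above. Without wildtype retina 3 with dox, 7 were called higher, and without untreated wildtype retina 1, 1 was (Col18a1). The first of these fits left only wildtype retinas 1 and 2, which had the most lens crystallin RNA, in the dox group. The share of all genes called in these fits is not given here.

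Between untreated PRDM13-OE and untreated wildtype mice, 0 of 42 were called (0.0% of all genes), 4 had an unadjusted p under 0.05 (9.52%, against 3.76% of all genes tested), and DESeq2 called 0. The smallest p values were those of Col10a1, Col3a1 (1.29 ± 0.54) and Col1a1 (1.89 ± 0.80), each with an adjusted p of 0.995. Col10a1 had 6, 5 and 4 counts in PRDM13-OE and 2, 2 and 0 counts in wildtype retinas, too few for a fold change. Col1a1 was at 1.50, 0.09 and 0.13 FPKM against 0.18, 0.16 and 0.11 FPKM, so that only untreated PRDM13-OE retina 1 was high. This retina also had the highest skeletal muscle list, at 51.2 CPM against 3.43 to 6.43 CPM in the other 11, and the highest RPE list, at 1064 CPM. Its fibroblast list was at 183 CPM, against 22.5 and 96.0 CPM in the other untreated PRDM13-OE retinas and 69.1 to 106 CPM in the untreated wildtype ones. Fibroblast genes were above 0 in 7 of 8 (median 1.195) with 0 called, and the part of these lists was not tested. Col3a1 too was high in this retina, at 1.11 FPKM against 0.19 and 0.27 FPKM in the other PRDM13-OE retinas and 0.16, 0.15 and 0.32 FPKM in the wildtype ones. Without this retina the fold changes were -0.47 for Col1a1 and 0.12 for Col3a1.

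Between PRDM13-OE mice with dox and untreated ones, 0 of 42 were called (1.04% of all genes), 7 had an unadjusted p under 0.05, all lower with dox (16.7%, close to the 15.6% of all genes tested), and DESeq2 called 0. Col4a2 (-0.43 ± 0.09, adjusted p = 0.0117) and Col4a1 (-0.42 ± 0.09, adjusted p = 0.0154) passed the adjusted p but not the fold cutoff. Their values with dox, given above, lay below those of the untreated group (5.80, 6.27 and 6.98 FPKM for Col4a2) in all 3 retinas. The endothelial list summed to 239 to 267 CPM with dox and 384 to 442 CPM without, with 11 of 12 genes below 0, 1 called and a median of -0.43. The rod list summed to 54685 to 61209.5 CPM with dox and 73349 to 80018 CPM without, with 14 of 14 genes below 0 and 1 called. RPE genes were below 0 in 10 of 12 (median -0.47), fibroblast genes in 7 of 8 (median -0.60) and skeletal muscle genes in 9 of 9 (median -3.70), with 0 called, and the part of these 5 lists was not tested. The crystallins summed to 28.9 to 51.3 CPM with dox and 38.9 to 158 CPM without, with 14 of 14 genes tested below 0 and 2 called, and with the crystallin level as a covariate over all 12 retinas the fold changes turned to 0.012 for Col4a2 and 0.15 for Col4a1. Col5a3 followed, at -0.71 ± 0.20 (adjusted p = 0.0640).

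Whether the difference between the genotypes differed with dox was tested as an interaction over the 12 retinas. The interaction called 2 collagen genes, both lower (0.515% of all genes were called lower). These were Col4a1 (-3.48 ± 0.80, adjusted p = 0.0210) and Col4a2 (-2.88 ± 0.67, adjusted p = 0.0230). Col2a1 passed the adjusted p at -0.52 ± 0.09 (adjusted p = 0.00259), under the fold cutoff. Without wildtype retinas 1 and 2 with dox, Col4a1 and Col4a2 were not called, while Col2a1 stood at -0.55 ± 0.12 (adjusted p = 0.0252). The count of 2 was 0 without PRDM13-OE retina 2 or 3 with dox or untreated wildtype retina 2, was 1 without PRDM13-OE retina 1 with dox, untreated PRDM13-OE retina 3 or untreated wildtype retina 3, and was 7 without untreated PRDM13-OE retina 2 or wildtype retina 3 with dox.

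In the 12 libraries of mice with dox, the interaction of genotype and tissue called 0 collagen genes (0.0% of all genes), with 9 at an unadjusted p under 0.05 and 0 called by DESeq2. Those 9 were 20.5% of the collagen genes, against 7.17% of all genes tested. Col4a5 (2.24 ± 0.69), Col4a1 (3.18 ± 0.98) and Col4a3 (1.92 ± 0.69) had the smallest p values, each with an adjusted p of 0.685. The difference between PRDM13-OE and wildtype mice with dox in the type IV genes was therefore called in the retina and not shown to differ from that in the eye cup. Without PRDM13-OE eye cup 3, however, the interaction was called for Col4a1 (3.29, adjusted p = 0.0454), Col4a5 (2.42, adjusted p = 0.0250), Col5a1 (1.58, adjusted p = 0.00590) and, in the other direction, Col25a1 (-1.82, adjusted p = 0.00561). Over the alternatives, which included leaving out wildtype retinas 1 and 2 with dox, Col4a1 ran from 0.065 to 3.71. Col4a5 ran from 1.10 to 2.59 and Col4a3 from 0.32 to 2.34.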

How the data were processed

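RNA sequencing of 24 libraries was analysed, from neural retinas and eye cups of 12 mice. Sequencing, mapping to GRCm39 and quantification were done for the authors by Novogene. The submitters' processing notes name CASAVA and HISAT2, and versions, the counting tool and the annotation release are not given in the sources used here. The authors deposited read counts per gene, without normalization, and FPKM values, computed from each gene's length and read count. Their columns of group means, fold changes and p-values for their own comparisons were not used. The positions of all 44 collagen genes overlapped those of GENCODE vM39.

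The quasi-likelihood test of edgeR 4.0.16 (R 4.3.3) with TMM factors was run on the counts of genes that reached 10 counts in total across a comparison's libraries, with Benjamini-Hochberg adjustment over all genes tested. Standard errors are the log2 fold change divided by the root of the F statistic. Marker sums are CPM with TMM factors over all 24 libraries. Alternatives were DESeq2 1.42.0, library size alone, other count filters and fold cutoffs, a robust fit, covariates, a replicate block and leaving out libraries. Tables and figures were made with python 3.11.15, pandas 2.3.3, numpy 2.4.6 and matplotlib 3.10.9, and the tests were tried on simulated data.

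Named with values were the 10 genes with the highest mean FPKM in each tissue, up to 3 called genes per class and all genes not called in the eye cup against the retina, up to 10 called genes (or, with fewer than 3, the 3 smallest p) in the other comparisons, the chains of the heterotrimers, and up to 4 called genes per pathway list. The collagen genes, lists and tests were chosen with earlier results of these data known. Each group holds 3 mice, and p-values measure the spread between them. The main fits of eye cup against retina and of the genotype by tissue interaction had no mouse term. Retina and eye cup of a mouse entered these fits as separate libraries. Floors of 3 counts cover counting error only. No 2 libraries held identical counts. Retina and eye cup of a mouse come from the same animal, and their deviations from the group means correlated by -0.01 to 0.21. Across mice of different groups, the same number marks no shared source. Reads of the human transgene were not analysed here. The values of 1 gene of the pathway lists are not reported here.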

Additional observations from a re-analysis of the deposited data

Results flagged for a closer look

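The difference between genotypes in the retina itself differed with dox for Col4a1 (-3.48 on the log2 scale) and Col4a2 (-2.88), by the edgeR test of the interaction over 12 retinas. Both values rest on wildtype retinas 1 and 2 with dox, which also had the most lens crystallin RNA. Without these 2 retinas the values were -0.39 (adjusted p = 0.54) and -0.61 (adjusted p = 0.22), and the lone wildtype retina left with dox was assumed to vary like the other groups. Each group held 3 retinas, and single outlying libraries were not tested.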

How the results depend on the processing

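Of the counts of called collagen genes in either direction, these changed with the processing by more than 1.5 times, and the causes were not tested. In the eye cup against the retina, 2 genes in place of 4 were lower at a log2 fold change past 2, and leaving out 1 library left 31 to 34 higher and 4 lower. In the eye cup, wildtype dox against untreated had 1 higher and 3 lower call with DESeq2, 1 lower (Col9a3) with library size alone or without the count filter, and 0 to 2 lower without 1 library. PRDM13-OE dox against untreated had 1 lower call, Col8a2, with DESeq2 and in a fit of all 12 eye cups with the rod level as covariate, which had 0 without the covariate. The crystallin covariate was likewise fitted over all 12 retinas. PRDM13-OE against wildtype had 0 to 1 lower calls without 1 library, with dox (Col25a1 without PRDM13-OE eye cup 3) and untreated (Col17a1, -4.32 without PRDM13-OE eye cup 1). In the retina with dox, PRDM13-OE against wildtype had 1 higher call with DESeq2, without the filter, without the fold cutoff or with the replicate block and 0 to 1 without 1 library, against 0, and its 10 lower calls became 1 with the robust fit, 6 past a log2 fold change of 2, 0 with the crystallin covariate, 0 without wildtype retinas 1 and 2 (chosen after seeing the data) and 4 to 10 without 1 library. Wildtype dox against untreated had 7 higher and 1 lower call without the filter, 1 higher with the replicate block and 0 to 7 without 1 library. Untreated PRDM13-OE against wildtype had 2 higher calls without the filter. PRDM13-OE dox against untreated had 1 lower call without the filter, 2 without the fold cutoff and 0 to 1 without 1 library. The retina interaction had 2 higher and 12 lower calls without the filter, 0 lower with the robust fit, the crystallin covariate or without wildtype retinas 1 and 2, and 0 to 7 without 1 library. The genotype by tissue interaction had 0 to 3 higher and 0 to 1 lower calls without 1 library.

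Signs turned for Col23a1 (0.16) and Col2a1 (0.49) in the eye cup against the retina of untreated wildtype mice only, for Col6a3 in PRDM13-OE against wildtype retinas with dox under the crystallin covariate (1.84) and without wildtype retinas 1 and 2 (1.43), for Col1a1 in untreated PRDM13-OE against wildtype retinas without PRDM13-OE retina 1 (-0.47, within a range of -0.47 to 2.40 without 1 library), and for Col4a2 (0.012) and Col4a1 (0.15) in PRDM13-OE retinas, dox against untreated, under the crystallin covariate. Of the alternative values of single named genes, 2050 kept direction and side of the threshold, 91 lost and 47 gained a call, and 7 turned. Mice that share only a number correlated by -0.61 to 0.69 in their deviations, so that the numbers pair no groups within a tissue. With the replicate block on them, PRDM13-OE against wildtype retinas with dox had 9 lower calls and the retina interaction 3, and with the mouse as a block the eye cup against the retina had 32 higher and 4 lower. Col6a5 and Col28a1, and Col10a1 in the retinas, rest on few counts.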
